A study of Mus musculus with 3 samples.

Results

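A set of 8 genes of the neuronal cytoskeleton and of growing axons was followed through every cell type of 3 pooled single-cell RNA libraries of mouse retina, with the retinal ganglion cells (RGCs) of P0 retina set against the cells that carry the same name in cultured explants. The 8 genes were *Nefl*, *Nefm*, *Nefh*, *Sncg*, *Sncb*, *Gap43*, *Stmn2* and *Rbpms*. They were chosen by name, and all 8 were present in each library among 19946 genes in the whole series. The explant library held 8 samples of wild type CD1 retina, taken at embryonic day 14 and grown for 6 days on membranes with 0, 5, 50 or 500 nM of a small molecule Sstr2 agonist, 2 samples at each dose. The P0 and P14 libraries, of C57BL/6 / CD1 mice, each held 1 retina labelled *Sstr2* +/+, 2 labelled +/- and 2 labelled -/-, called wild type, heterozygous and knockout here, and were not treated. Samples are named explants or retinas below. No source used here says whether the 2 samples of a group came from separate animals or cultures, so p-values measure the spread between these samples, which may be technical.

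Neurofilaments are the intermediate filaments of neurons, built from a light (*Nefl*), a medium (*Nefm*) and a heavy (*Nefh*) subunit, and they fill the calibre of long axons. The synucleins are small proteins of nerve endings and axons, of which *Sncg* is widely used as an RGC marker, and *Sncb* is the beta member of the family. *Gap43* is a membrane protein of growth cones, *Stmn2* is a stathmin that binds tubulin in growing neurites, and *Rbpms* encodes an RNA-binding protein used to label RGCs in retina. RGCs are the only retinal neurons that send an axon out of the eye, along the optic nerve.

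On GRCm38, with the annotation of GENCODE M21, *Nefl* (ENSMUSG00000022055) lies at chr14:68083863-68089095 on the plus strand and *Nefm* (ENSMUSG00000022054) at chr14:68082590-68124846 on the minus strand. An annotated *Nefm* transcript spans *Nefl*, and 1 exon pair overlaps on opposite strands. The strand setting of the counting is not given in the sources used here, so reads in that overlap cannot be assigned with certainty. *Nefh* (ENSMUSG00000020396) lies on chromosome 11, *Sncg* (ENSMUSG00000023064) at chr14:34370274-34374789, *Sncb* (ENSMUSG00000034891) at chr13:54758860-54766595, *Gap43* on chromosome 16, *Stmn2* on chromosome 3 and *Rbpms* on chromosome 8.

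Among the 8 genes the table of promoters used here held the synuclein pair, whose members had unlike patterns across cell types and large differences between P0 and explant RGCs. The bases before each start, from RefSeq on GRCm38.p6, are printed 5′ to 3′ on the minus strand, and only as far as they lie outside the GENCODE gene. They are 130 bases at chr14:34374790-34374919 for *Sncg* and 250 bases at chr13:54766596-54766845 for *Sncb*. Capitals mark a GC box, searched as GGGCGG and as CCGCCC for the other strand.
Sncg: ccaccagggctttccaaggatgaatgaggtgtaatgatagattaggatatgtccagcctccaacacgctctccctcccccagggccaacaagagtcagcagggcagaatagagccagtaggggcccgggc
Sncb: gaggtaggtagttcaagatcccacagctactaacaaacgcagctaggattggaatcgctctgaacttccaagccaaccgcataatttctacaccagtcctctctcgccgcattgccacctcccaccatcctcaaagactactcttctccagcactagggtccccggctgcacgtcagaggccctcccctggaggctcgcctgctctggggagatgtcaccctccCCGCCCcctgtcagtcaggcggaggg
The *Sncb* window held 1 box, as 32.7% of 32851 promoters did over the same 250 bases. The *Sncg* window held 0, while 14.0% of the promoters held one in their first 130 bases. GC content was 56.9% for *Sncg* and 58.8% for *Sncb*. These letters describe the windows and were not tied to any measured level.

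The libraries held 5607 explant, 5706 P0 and 3298 P14 cells. Explants held 1281682 to 4237324 UMIs (unique molecular identifiers, 1 per captured transcript), P0 retinas 8822880 to 10793649 and P14 retinas 1266730 to 5886669. Explant cells were deposited between 1001 and 2499 genes each, and P0 cells between 1013 and 7324. In neurogenic progenitors at P0 the targeted gene *Sstr2* stood at 112 CPM (UMIs per 1e+06) in the retina labelled wild type, at 189 and 248 CPM in those labelled heterozygous, and at 294 and 375 CPM in those labelled knockout. The paper reports the same direction in neurogenic progenitors of P0 mutants, and proposes that receptor signaling may hold down *Sstr2* transcription. The values run against the labels if the 3' tag lies in the deleted part, which the sources used here do not say. Every genotype named below is therefore the label of a retina, and directions between genotypes are directions between labels. Libraries shared 9, 4 and 7 cell barcodes in the 3 pairings.

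The class named RGCs held 85 P0 cells, 12 to 26 per retina, and 200 explant cells, 5 to 61 per explant. Its label was checked against markers. At P0, 84 of 85 cells had a UMI of *Pou4f1*, *Pou4f2* or *Pou4f3*, the transcription factors that define RGCs, and none of *Tfap2a* or *Tfap2b*, which mark amacrine cells, the interneurons of the inner retina. In the explants 100 cells had a *Pou4f* UMI alone, 60 had a *Tfap2a* or *Tfap2b* UMI alone, 16 had both and 24 had neither. *Tfap2b* stood at 411 CPM in explant RGCs and had 0 UMIs in P0 RGCs. The explant class is therefore called by its name in the deposited annotation, and the values of the 8 genes between P0 and explants are given with and without the cells that lack the *Pou4f* pattern. The 10 amacrine markers summed to 862 to 1410 CPM in explant RGCs and to 520 to 543 CPM in P0 RGCs, where *Tfap2b*, *Tfap2c*, *Ptf1a*, *Gad1* and *Slc32a1* had 0 UMIs. *Pax6*, on the amacrine list, made up most of the P0 sum, at 522 CPM over pooled P0 RGCs, all of which held it. It stood at 614 CPM over pooled explant RGCs, so the sums understate the contrast in the other amacrine markers. The 11 RGC markers summed to 2844 to 4589 CPM in explant RGCs and 3363 to 4339 CPM in P0 RGCs. Among them *Isl1* stood at 779 CPM over pooled explant RGCs and 361 CPM over pooled P0 RGCs. The part of amacrine RNA in the differences below was not tested beyond that split. The median P0 RGC held 24853 UMIs and the median explant RGC 3079.5, and 0 of the 85 P0 RGCs had as few genes as the explant cells.

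Across cell types, the genes fell into patterns that are described and not tested, because the types were named from markers of the same cells. The share of all genes whose RGC range clears every other type was not worked out, at P0 or in the explants. Ranges without overlap between types therefore describe these genes only. At P0 *Sncg* stood at 3207 ± 239 CPM (SD, n = 5 retinas) in RGCs and at 7.21 ± 2.74 CPM in amacrine cells, the next type. RGCs made up 1.49% of P0 cells and held 98.5% of all *Sncg* UMIs, 87.5% of *Nefl*, 81.2% of *Gap43*, 71.7% of *Rbpms* and 66.6% of *Nefm* UMIs. The RGC range lay above that of every other P0 type for *Nefl*, *Nefm*, *Sncg*, *Gap43*, *Stmn2* and *Rbpms*. *Stmn2* was the most shared of these, at 4442 ± 357 CPM in RGCs and 968 ± 95.4 CPM in amacrine cells, and amacrine cells held 40.4% of its UMIs. *Sncb* had no such order, since P0 amacrine cells (141 ± 25.8 CPM) and RGCs (135 ± 34.3 CPM) overlapped. *Nefh* was low everywhere at P0, with 9.05 CPM in photoreceptors and 7.93 ± 4.16 CPM in RGCs, whose ranges overlapped.

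**Figure D1:**
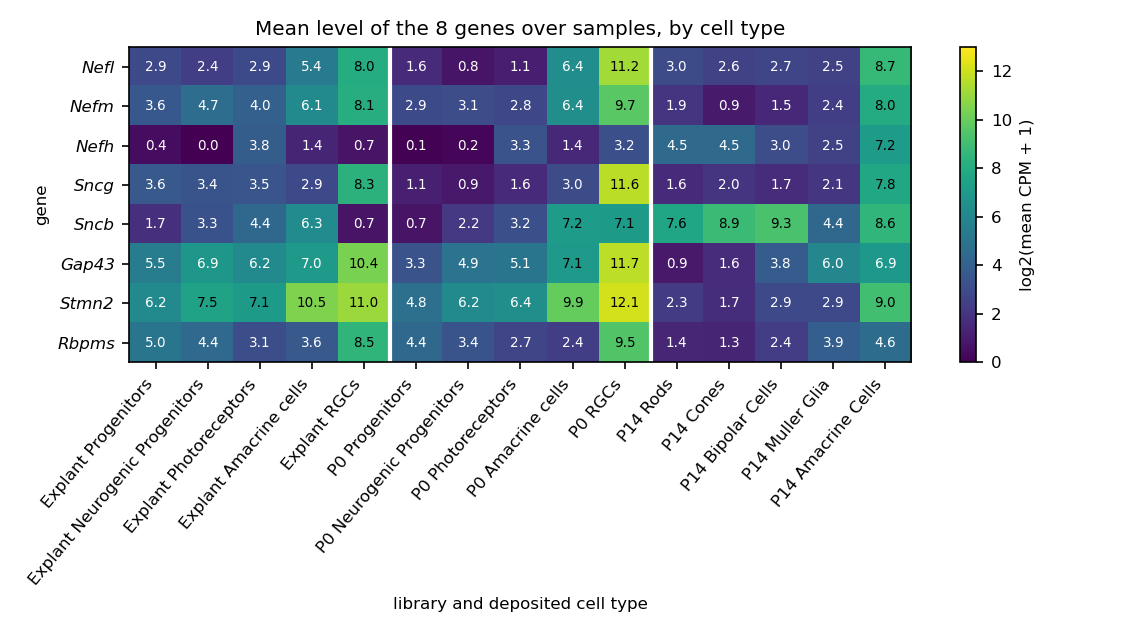
Heat map of log2(mean CPM + 1) for the 8 genes (rows) in the 15 deposited cell types of the 3 libraries (columns), each a mean over the samples of its library. P0 RGCs have the brightest cells for 6 genes, *Sncb* is brightest in P14 bipolar cells and *Nefh* in P14 amacrine cells.

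In the explants the order differed in part. RGCs again ranked above every other type for *Nefl*, *Sncg*, *Gap43* and *Rbpms* without overlap. *Stmn2* ranges of RGCs (1471 to 2693 CPM) and amacrine cells (1215 to 1557 CPM) overlapped, as did those of *Nefm*. *Nefh* was highest in explant photoreceptors, at 13.04 CPM. *Sncb* stood at 77.4 ± 19.9 CPM (SD, n = 8 explants) in explant amacrine cells and had 1 UMI in all 200 explant RGCs. In thinned cells, each drawn down to 2000 UMIs, a *Sncg* UMI was found in 33.3% of explant RGCs and 98.8% of P0 RGCs. In primary progenitors, which should lack it, the thinned shares were 1.40% in explants and 0.179% at P0, at median depths of 4548 and 8759 UMIs before thinning. For *Gap43* the progenitor shares were 8.28% and 1.86%, against 72.8% and 100% in RGCs.

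At P14 no class was named RGCs. All genes but *Sncb* had their highest means in the 68 cells named amacrine cells, and each of these 7 overlapped with the next type over the 5 retinas. A heterozygous retina gave 4 such cells with 0 UMIs of *Nefl*, *Nefm*, *Nefh*, *Sncg*, *Stmn2* and *Rbpms*. *Sncb* was spread most widely at P14, at 610 CPM in bipolar cells, 465 CPM in cones, 380 CPM in amacrine cells and 198 CPM in rods, each a mean over 5 retinas. Neighbours in that order overlapped. Muller glia, the supporting cells of the retina, stood at 19.7 CPM *Sncb*, with no overlap with rods.

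The comparison of P0 RGCs with explant RGCs asks how far these genes differ between RGCs of the retina and cells given that name in culture. Both carry the same labelled age, P0, while strain, culture and library change together between them and cannot be told apart. Genotype label and agonist differ as well. Most P0 retinas were labelled heterozygous or knockout, while the explants were wild type and most received the agonist. The deposited cells also differ in genes per cell, at most 2499 in any explant cell and 3335 to 7128 in P0 RGCs. Explant cells with as many genes as a P0 RGC are thus absent from the data, and thinning cannot restore them. The part of this in the differences was not tested. The filter on low counts left out *Nefh* and kept *Sncb* through its P0 counts alone, so no test is given for either in this comparison. The other 6 genes were all higher in P0 RGCs by edgeR at an adjusted p under 0.05. The background was large: of the 3696 genes tested 27.1% were called higher in P0, 26.8% lower and 54.0% in either direction. CPM ranges of P0 and explants did not overlap, with P0 higher, for these 6 genes and *Sncb*, and for 4.65% of the 14978 genes with a UMI in these sums. The median log2 fold change was 1.32 for the 6 genes and 0.02 for all genes tested.

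*Nefl* stood at 2159 and 1951 CPM in RGCs of the heterozygous retinas, 2161 and 2200 CPM in the knockout retinas and 3154 CPM in the wild type retina. Its explant values were 237 and 232 CPM without agonist, 208 and 382 CPM with 5 nM, 247 and 194 CPM with 50 nM, and 277 and 310 CPM with 500 nM. The groups did not overlap, and the highest explant lay far below the lowest retina. The log2 fold change of *Nefl*, P0 minus explant, was 3.01 (SE 0.17, adjusted p = 4.14e-18 by edgeR). After thinning, 95.3% of P0 RGCs and 36.9% of explant RGCs had a *Nefl* UMI.

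*Nefm* differed less. Its lowest P0 retina stood at 675 CPM and the highest at 996 CPM, while explants ran from 59.2 CPM, in a 0 nM explant with 11 RGCs, through a median of 308 CPM to 387 CPM. The log2 fold change of *Nefm* was 1.38 (SE 0.17, adjusted p = 9.54e-09 by edgeR). *Nefh*, the subunit that joins neurofilaments late in maturation, was near the detection limit, with 17 UMIs in P0 RGCs and 1 UMI in explant RGCs. The ratio of their pooled levels was 4.98 (95% counting interval 0.781 to 208), and the ranges overlapped.

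**Figure D2:**
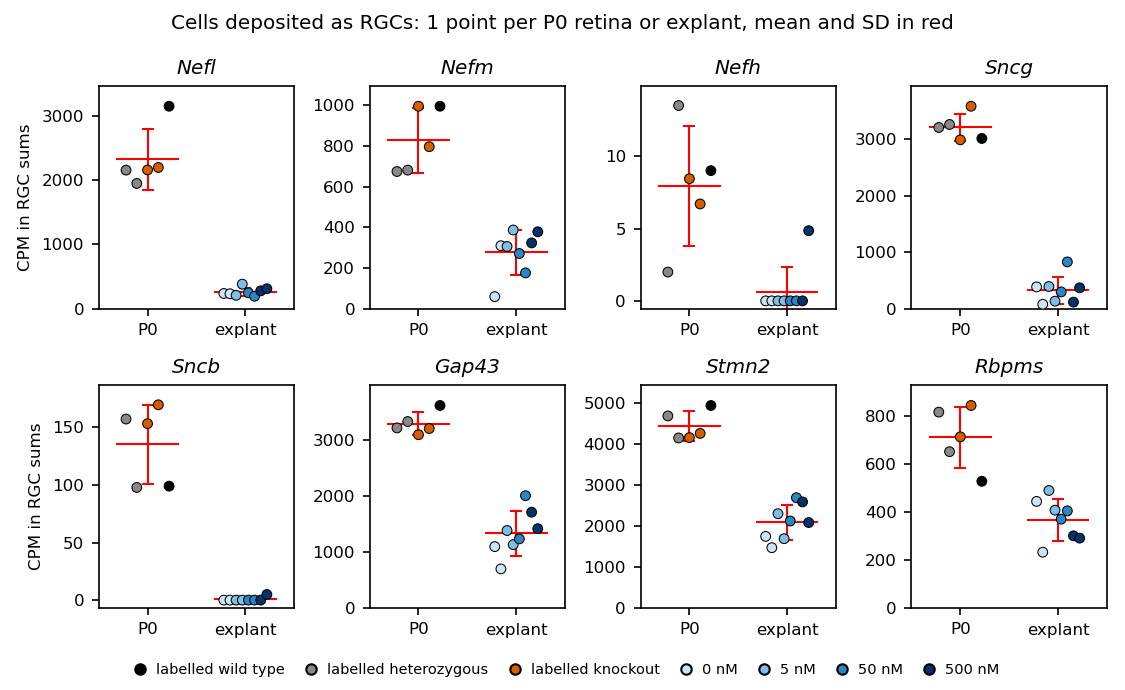
CPM of each gene (vertical axes, linear) in sums over cells named RGCs, 1 point per P0 retina (left) or explant (right), coloured by label or dose, with mean and SD in red. The 5 retinas lie above the 8 explants in every panel except *Nefh*.

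The gamma synuclein gene *Sncg* ran from 2986 to 3579 CPM in the 5 retinas. The explants were uneven, with 385 and 77.4 CPM without agonist, 392 and 132 CPM with 5 nM, 296 and 827 CPM with 50 nM, and 116 and 369 CPM with 500 nM. Explants given the same dose lay far apart, and none reached the retinas. Of the low values, 77.4 CPM came from 5 cells with 12913 UMIs of all genes and 116 CPM from 10 cells with 43248, so few *Sncg* UMIs lie behind them. The 132 CPM came from 61 cells with 196299 UMIs. The log2 fold change was 3.24 (SE 0.22, adjusted p = 8.14e-16 by edgeR). *Sncb* stood at 157 and 97.9 CPM in heterozygous, 153 and 170 CPM in knockout and 99.0 CPM in wild type RGCs, and at 0 CPM in 7 of 8 explants. Its 326 P0 UMIs against 1 explant UMI gave a ratio of pooled levels of 95.6 (95% counting interval 17.0 to 3786).

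The growth cone gene *Gap43* stood at 3097 to 3619 CPM in the retinas and at 697 to 2006 CPM in the explants, with a median of 1309 CPM. Its log2 fold change was 1.25 (SE 0.16, adjusted p = 1.55e-08 by edgeR). *Stmn2* stood at 4152 to 4945 CPM in the retinas and 1471 to 2693 CPM in the explants, a log2 fold change of 1.07 (SE 0.16, adjusted p = 2.47e-07). *Rbpms* came closest to overlap, with 528 CPM in the wild type retina and 490 CPM in the highest explant. Its log2 fold change was 0.89 (SE 0.15, adjusted p = 4.90e-06). All 3 genes were thus well detected in explant RGCs, unlike *Sncb*.

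With every cell thinned to 2000 UMIs, 446 genes passed the filter, and 228 of these were called in either direction. *Nefl* (2.21), *Sncg* (2.72), *Nefm* (0.68), *Gap43* (0.65) and *Stmn2* (0.63) kept their calls on the log2 scale, *Sncb* was not tested and *Rbpms* lost its call (0.19, SE 0.24, adjusted p = 0.549 by edgeR). Pooled CPM ratios, P0 over explant, changed little: 1.77 for *Rbpms*, 2.39 for *Gap43*, 2.38 for *Stmn2* and 2.37 for *Nefm* in thinned cells. At full depth they were 1.96, 2.40, 2.15 and 2.58. The thinned fit is normalized over the 446 genes left, and the part of this in the lower fitted values was not tested. Leaving out any 1 of the 13 samples kept all 6 calls. Against the 0 nM explants alone, with 11 and 5 RGCs, the 6 calls also held, beside 531 of 5552 genes called in either direction. The log2 fold changes were larger, at 3.62 for *Nefl*, 2.99 for *Nefm*, 3.75 for *Sncg*, 2.08 for *Gap43*, 1.76 for *Stmn2* and 1.22 for *Rbpms* (highest adjusted p = 0.0214 by edgeR), beside a median of 0.52 over all genes.

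**Figure D3:**
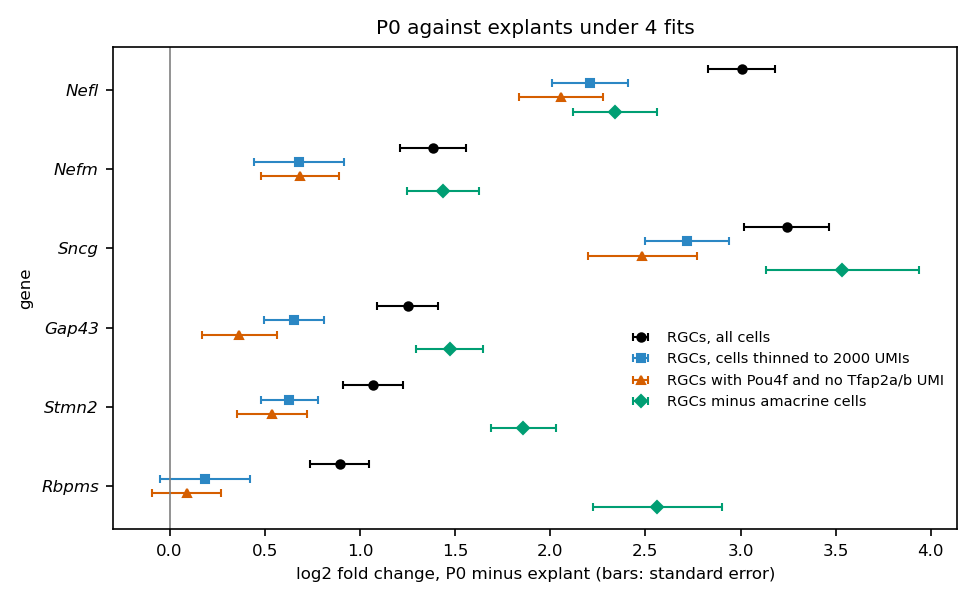
Fitted log2 fold change of 6 genes, P0 minus explant, with bars of 1 SE, for all RGCs, thinned RGCs, RGCs with a *Pou4f* and no *Tfap2a* or *Tfap2b* UMI, and RGCs minus amacrine cells. *Nefl* runs from 2.06 to 3.01 and *Sncg* from 2.48 to 3.54, and *Rbpms* stands at 0.09 among *Pou4f* cells.

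Within the explant class, the genes divided by marker. The 100 cells with *Pou4f* alone held *Gap43* at 2049 CPM, *Rbpms* at 551 CPM, *Nefl* at 466 CPM and *Sncg* at 456 CPM. The 60 cells with *Tfap2a* or *Tfap2b* alone held *Gap43* at 284 CPM, *Rbpms* at 31.0 CPM, *Nefl* at 88.7 CPM and *Sncg* at 8.86 CPM. *Stmn2* differed least between these sets, at 2533 and 1445 CPM. The *Tfap2* cells also held *Isl1* at 1706 CPM, the progenitor gene *Sox2* at 736 CPM and the neurogenic factor *Neurog2* at 691 CPM, while *Isl1* stood at 315 CPM and *Neurog2* at 15.7 CPM in the *Pou4f* cells. They were found in all 8 explants, at 17.6% to 50.0% of the RGC class, and depth was alike in the sets, with medians of 2978 and 3326 UMIs. The 24 cells with neither held *Gap43* at 1707 CPM, *Rbpms* at 603 CPM, *Nefl* at 301 CPM and *Sncg* at 531 CPM. *Sox2* and *Neurog2* stood at 0 CPM in them. This split was chosen after the data were seen, and levels inside it are descriptions.

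**Figure D4:**
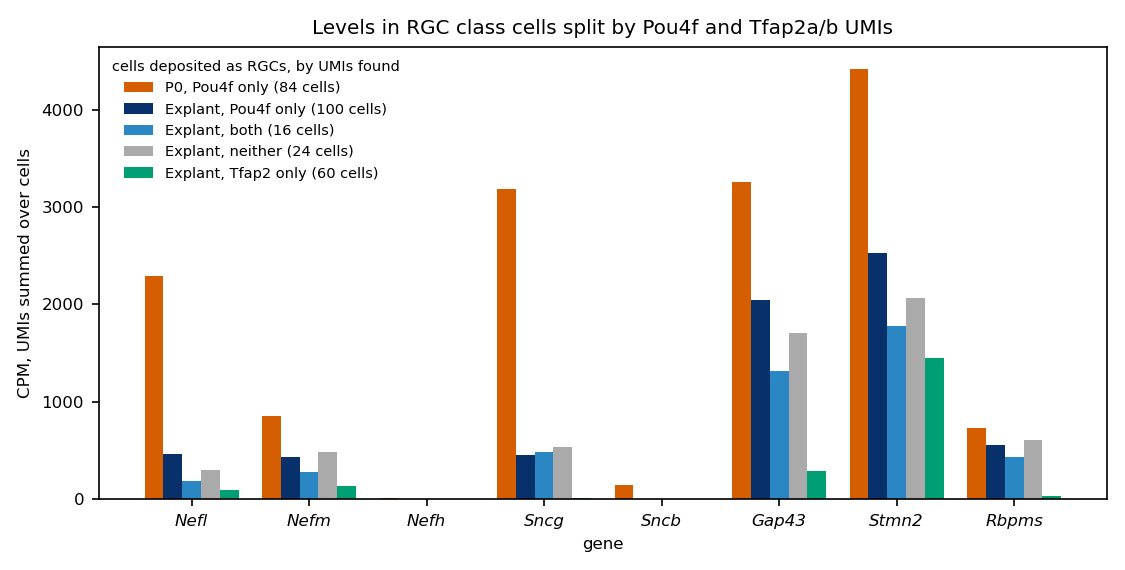
CPM of the 8 genes over summed UMIs (vertical axis from 0) in RGC class cells grouped by *Pou4f* and *Tfap2a* or *Tfap2b* UMIs. *Sncg* stands at 3190 CPM in P0 cells, 456 CPM in explant cells with *Pou4f* alone and 8.86 CPM in those with *Tfap2* alone.

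Among cells with a *Pou4f* and no *Tfap2a* or *Tfap2b* UMI, *Nefl* (2.06, SE 0.22, adjusted p = 2.96e-09) and *Sncg* (2.48, SE 0.29, adjusted p = 1.14e-08) were still higher at P0 by edgeR. *Nefm* (0.69, adjusted p = 0.00484) and *Stmn2* (0.54, adjusted p = 0.0117) also passed. *Gap43* (0.37, SE 0.20, adjusted p = 0.108) and *Rbpms* (0.09, SE 0.18, adjusted p = 0.697) did not, and *Sncb* was left out by the filter. The background was again large, with 1009 of the 1629 genes tested called in either direction. The split was made at each cell's own depth, which was higher in P0 RGCs. The part of this in these values was not tested.

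The difference, P0 minus explant, was compared between RGCs and amacrine cells of the same samples, in 1 model with each sample as a block. It keeps its sign, so a positive value can come in part from amacrine cells with lower levels at P0. Mean amacrine levels were lower at P0 than in explants for *Rbpms* (4.27 and 11.3 CPM) and *Stmn2* (968 and 1419 CPM). They were higher at P0 for the other genes tested. For *Sncg* (7.21 and 6.29 CPM) and *Gap43* (132 and 127 CPM) that gap was smaller than the SD over explants, 4.28 and 15.6 CPM. A shift shared by all cells of a library cancels in this model. The range of genes per explant cell is not shared in that way, since 0 of 85 P0 RGCs and 250 of 1013 P0 amacrine cells lay within it. Its part was not tested. All 7 genes tested passed, with 32.6% of 7599 genes called in either direction and 19.1% called as a larger P0 excess in RGCs. The log2 difference of differences was 5.44 for *Sncb* (SE 0.69), 3.54 for *Sncg* (SE 0.40), 2.56 for *Rbpms* (SE 0.34), 2.34 for *Nefl* (SE 0.22), 1.86 for *Stmn2* (SE 0.17), 1.47 for *Gap43* (SE 0.18) and 1.44 for *Nefm* (SE 0.19). The size given for *Sncb* rests on 1 UMI in explant RGCs and depends on edgeR's prior count. Adjusted p-values ran up to 2.97e-12 by edgeR, and all 7 calls held in every alternative fit, the *Pou4f* cells included. Among *Pou4f* cells *Rbpms* stood at 2.22 in this model, beside 0.09 for RGCs alone. Against the 0 nM explants alone the values of *Nefm* (3.11) and *Gap43* (2.43) were over 1.5 times as large, beside a median of 0.82 over all genes. *Sncb* stood at 9.53 (SE 2.69) there. The RGCs of those explants held no *Sncb* UMI, so that size also depends on the prior count and is not set against 5.44. Over all genes the split was 1454 higher and 1027 lower with TMM, and 1092 higher and 1416 lower with DESeq2's size factors.

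At equal depth, a P0 RGC had UMIs of 5.49 ± 0.11 of the 8 genes on average (SD over 5 retinas) and an explant RGC of 3.05 ± 0.47 (SD over 8 explants). Amacrine cells had 1.28 ± 0.03 and 1.39 ± 0.04. At least 5 of the genes were found in 91.8% of the 85 P0 RGCs and in 23.6% of 195 explant RGCs. Explant RGCs had a peak at 1 gene (20.0% of cells) and another at 4 (25.6%). Those with the *Pou4f* pattern had 4.11 ± 0.34 genes. These means are given without a test, since they score a chosen list.

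**Figure D5:**
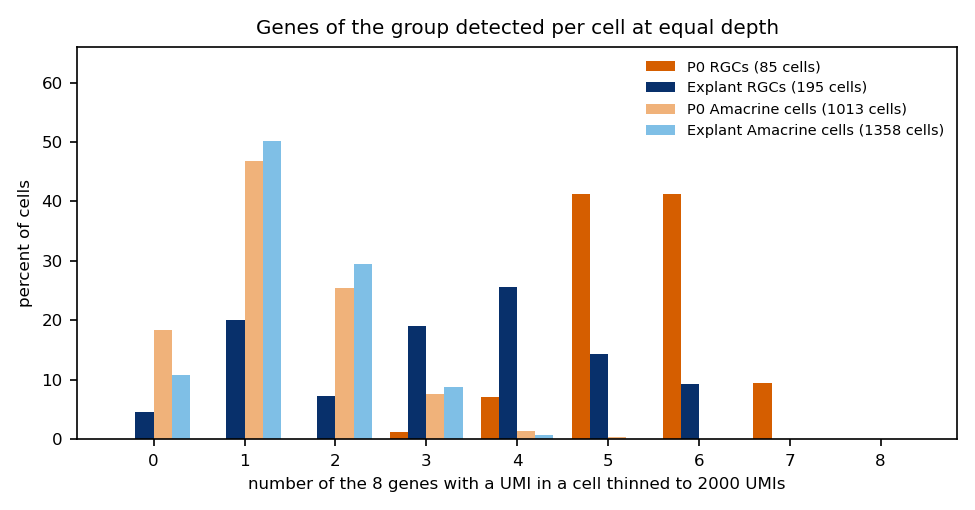
Percent of cells (vertical axis) by the number of the 8 genes with a UMI (horizontal axis) after thinning to 2000 UMIs, for RGCs and amacrine cells of P0 and explants. P0 RGCs lie at 3 to 7 genes, and explant RGCs spread from 0 to 6.

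Within P0 RGCs, UMIs of *Nefl*, *Nefm*, *Sncg*, *Gap43*, *Stmn2* and *Rbpms* were found in all 85 cells, those of *Sncb* in 71 and those of *Nefh* in 14. *Gap43* and *Stmn2* were even, with 10th and 90th percentiles of 2380 and 4054 CPM and of 3463 and 5446 CPM. *Nefl* was spread more, from 754 to 3838 CPM between these percentiles, and *Nefm* from 215 to 1480 CPM. Over the 85 cells log2 levels of *Nefl* and *Nefm* had a Pearson r of 0.71 and a Spearman rho of 0.72, and *Nefl* and *Sncb* of 0.50 and 0.48. *Nefl* with *Sncg* (r = 0.02), *Gap43* (r = -0.03) and *Rbpms* (r = -0.07) showed no such relation. These cells share 5 retinas and 1 library and differ in depth, and *Nefl* and *Nefm* share the annotated overlap, so no test is given.

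Other genes of the same families were read from lists of related genes in the RGC comparison, and each count is to be read against the 27.1% of all genes called higher and the 26.8% called lower. Against the 0 nM explants alone, 12 of the genes named from these lists lost their calls: *Vim* (0.91), *Stmn4* (0.65), *Dst* (-0.46), *Ephb2* (-1.14), *Kif5b* (-0.58), *Rbpms2* (1.06), *Elavl2* (0.47), *Thy1* (0.90), *Slc17a6* (0.98), *Pcp4* (2.86), *Bbc3* (1.05) and *Jun* (-1.09), with adjusted p of 0.162 to 0.585. Of 3 further stathmins, all 3 were called higher in P0 RGCs: *Stmn1* (log2 1.51, SE 0.16), *Stmn3* (1.14, SE 0.14) and *Stmn4* (0.37, SE 0.15), the last of which changed sign among thinned and *Pou4f* cells and lost its call with DESeq2 (0.39), without the highest doublet scores (0.22) and without any 1 of 10 samples (0.16 to 0.36). Of 7 intermediate filament and linker genes 4 were tested. *Ina*, the neuronal filament partner of the neurofilaments, was called higher (0.53, SE 0.14) and stood at -0.027 in thinned and 0.10 in *Pou4f* cells, where it was not called. *Vim* was called higher (0.63, SE 0.25), a call lost among *Pou4f* cells (0.08), without the highest doublet scores (0.61) and without knockout replicate 2 (0.46), 5 nM replicate 1 (0.60) or 2 (0.47), or 50 nM replicate 1 (0.55), while the giant cytolinkers *Dst* (-1.17, SE 0.18) and *Macf1* (-1.27, SE 0.15) were lower in P0 RGCs. The median of the 4 was -0.32.

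Of 38 growth cone and axon growth genes, 30 were tested, 12 were called higher and 10 lower in P0 RGCs, beside 27.1% and 26.8% of all genes, with a median log2 fold change of -0.02 beside 0.02 for all genes. *Nrn1*, a neuritin that promotes neurite growth, was higher by 2.07 (SE 0.23) and *Tubb2a*, a beta tubulin, by 1.37 (SE 0.18). The guidance ligand *Slit2* (-2.09, SE 0.33) and the Eph receptor *Ephb2* (-1.62, SE 0.27) were counted among the 10 called lower. Both passed the filter through their explant counts, so their calls are not read as results. *Slit2* was left out by the filter in most alternatives. Of 10 axonal transport genes 9 were tested, none was called higher and 4 kinesins were called lower, beside 26.8% of all genes, with a median of -0.02. These were *Kif1a*, from 582 ± 87.9 CPM in explants to 155 ± 20.3 CPM at P0 (-1.93, SE 0.15), *Kif1b* (-1.66, SE 0.14), *Kif5c* (-1.52, SE 0.15) and *Kif5b* (-0.57, SE 0.15), whose call was lost without the filter (-0.17, adjusted p = 0.545), where the median of all genes was 0.34.

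Of 10 further RNA-binding proteins of neurons 9 were tested and 3 were called higher, beside 27.1% of all genes, namely *Rbpms2*, the paralog of *Rbpms* (0.93, SE 0.25), *Elavl4* (0.76, SE 0.16) and *Elavl2* (0.56, SE 0.18). The list had a median of 0.12. The *Elavl2* call was lost without the highest doublet scores (0.37) and without 5 nM replicate 2 (0.42) or 500 nM replicate 2 (0.41). None of these 3 was called among *Pou4f* cells, with log2 values of -0.056, -0.14 and -0.10. Of 14 surface and metabolism genes of RGCs, 6 were tested and 4 were called higher, beside the same 27.1%. The ubiquitin hydrolase *Uchl1* was higher by 1.59 (SE 0.15), the glutamate transporter *Slc17a6* by 1.08 (SE 0.26) and the surface glycoprotein *Thy1* by 1.04 (SE 0.31). *Pcp4*, a calmodulin regulator counted among the 4 (3.61, SE 0.47), passed the filter through its P0 counts, and its call is not read as a result. It had a wide P0 range of 108 to 945 CPM, beside 0 to 141 CPM in explants. The median of the 6 was 1.06. Among *Pou4f* cells *Thy1* stood at -0.0096 and *Slc17a6* at 0.09, and neither passed. The *Thy1* call was also lost without 5 nM replicate 2 (0.74) or 500 nM replicate 2 (0.79). Of 13 injury and stress genes 3 were tested, *Bbc3*, a proapoptotic BH3 gene, was higher by 0.86 (SE 0.28) and *Jun* lower (-0.88, SE 0.24), with a median of 0.34. The *Jun* call was lost without the filter (-0.49, adjusted p = 0.0586) and among *Pou4f* cells (-0.46, adjusted p = 0.239).

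The agonist comparison, 500 nM against 0 nM, asked whether the 8 genes answer to Sstr2 activation in culture. Of 24 values over 5 cell types 0 passed by edgeR, 5 had an unadjusted p under 0.05, and DESeq2 called 0. Over the same cell types 0.198% of 31270 gene values were called at the adjusted threshold. The share of all gene values with an unadjusted p under 0.05 is not given, here or for the genotype comparisons below. Counts at the unadjusted threshold therefore have no background and are not read as results. In RGCs *Nefm* stood at 59.2 and 310 CPM at 0 nM and at 324 and 378 CPM at 500 nM (log2 1.41, SE 0.58, adjusted p = 0.547). The other RGC values ran from -0.41 for *Rbpms* to 0.62 for *Gap43*. *Sncg* in progenitors had the smallest adjusted p (2.74, SE 0.86, adjusted p = 0.246), and its sign turned with the log of dose as a covariate (-0.28). Without a 500 nM explant, replicate 1, *Stmn2* in progenitors stood at 0.84, beside 0.63 with all explants. The 0 nM explants held 11 and 5 RGCs.

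At P0 the retinas labelled knockout were compared with the single retina labelled wild type and with both labelled heterozygous. *Nefl* in RGCs, given by retina above, was lower in knockout than in wild type (log2 -0.58, SE 0.13, adjusted p = 0.00253 by edgeR), the only call in 29 values over 5 cell types. The wild type arm is 1 retina and the spread comes from the other labels, so this p does not separate the label from that retina. Of all gene values 0.112% were called over these types, and 0.658% of 6994 genes in RGCs. The 2 heterozygous retinas lay at the level of the knockout retinas, so the wild type retina stood apart from the other 4. Against heterozygous retinas the value was 0.09 (SE 0.11, adjusted p = 0.986). The call was lost with DESeq2 (adjusted p = 0.0924) and without either knockout retina (adjusted p = 0.218 and 0.215). *Rbpms* went the other way, at 528 CPM in wild type and 713 and 844 CPM in knockout RGCs (0.51, SE 0.18, adjusted p = 0.262). Against heterozygous retinas 0 of 29 values passed by edgeR, beside 0.109% of all gene values, 5 had an unadjusted p under 0.05, and DESeq2 called 0. The nearest was *Nefm* in RGCs (0.41, SE 0.13, adjusted p = 0.191), at 996 and 797 CPM in knockout and 675 and 682 CPM in heterozygous retinas.

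In P0 amacrine cells *Nefl* stood at 140 CPM in wild type, 122 and 55.8 CPM in heterozygous, and 36.6 and 60.9 CPM in knockout retinas. The log2 value against wild type was -1.49 (SE 0.33, adjusted p = 0.361), and -1.12 for *Nefm* (SE 0.32, adjusted p = 0.998). With any 1 of the 4 other retinas left out, *Nefl* ran from -1.93 to -1.18 and *Nefm* from -1.49 to -0.85. The share of all genes called in those fits is not given, so calls in them are not read as results. A few cells carried these UMIs. The 17 of 1013 amacrine class cells with a UMI of *Lhx1*, a horizontal cell factor, held *Nefl* at 1795 CPM and *Nefm* at 1228 CPM, and the others at 28.5 and 49.2 CPM. The wild type retina gave 8 of the 17 cells, the heterozygous retinas 2 and 3, and the knockout retinas 0 and 4. Without them *Nefl* stood at 23.3 CPM in wild type, 25.3 and 30.8 CPM in heterozygous and 36.6 and 26.7 CPM in knockout retinas, so that wild type was the lowest. This split was also chosen after the data were seen, and its part in the comparison was not tested.

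At P14, 0 of 17 values passed in either comparison by edgeR, beside 0.0976% of all gene values against wild type and 0.0705% against heterozygous retinas, 2 had an unadjusted p under 0.05 in each, and DESeq2 called 0. The amacrine class, with 4 to 23 cells per retina, had *Nefl* at 532 CPM in wild type, 541 and 0 CPM in heterozygous and 799 and 204 CPM in knockout retinas. The class held markers of more than amacrine cells, with *Tfap2b* at 1066 CPM, the horizontal cell genes *Calb1* at 1961 CPM and *Lhx1* at 376 CPM, and *Pou4f1* at 29.8 CPM. Its 10 cells with *Lhx1* held *Nefh* at 245 CPM and *Sncg* at 403 CPM, and the other 58 held 41.7 and 80.6 CPM. The 4 cells with a *Pou4f* UMI, from 3 retinas, held *Nefl* at 3408 CPM, *Nefm* at 1792 CPM and *Rbpms* at 656 CPM. In the 54 cells with neither, *Nefl* stood at 116 CPM, *Sncg* at 12.5 CPM and *Rbpms* at 0 CPM, while *Sncb* stood at 709 CPM and *Stmn2* at 565 CPM.

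The genes most like each of the 8 were sought by Pearson r of log2(CPM + 1) over the 15 cell type means, among 13173 genes with at least 100 UMIs. *Nefl* was most like *Stk32b* (0.97), *Resp18* (0.97) and *Rusc1* (0.97), and *Nefm* like *Elavl4*, *Gng2* and *Dcx* (0.96 each). *Sncg* was most like *Tmem163* (0.97), *Nrn1* (0.96) and *Cpne4* (0.96). *Gap43* was most like *Ttc28*, *Cacnb3* and *Nln* (0.94 to 0.97), *Stmn2* like *Gng2*, *Barhl2* and *Mgat5b* (0.96 to 0.97) and *Rbpms* like *Mstn*, *Scn9a* and *Irx2* (0.91 to 0.92). *Sncb* was most like *Gjd2*, *Slc12a5* and *Arxes2* (0.92 to 0.93), and *Nefh* like *Mfn1*, *Olfr46* and *Syvn1* (0.91 to 0.94). Among the 8 genes themselves r was highest for *Nefm* and *Stmn2* (0.94). These means share libraries and depth, so the values describe these 15 points.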

How the data were processed

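The libraries were 10x Chromium 3' v3.0 MULTI-seq libraries of pooled samples, which the authors processed with Cell Ranger 3.1.0 on mm10 per the submitters' notes, assigned to samples with deMULTIplex and annotated in Seurat 3. The deposited values used here are raw UMI counts per gene and cell, which the authors did not normalize. Deposited SCT values were not used. Sample, condition and cell type are the authors' annotation, which gives a sample barcode and no replicate number, so replicates were numbered in barcode order. The strand setting of the counting is not given in the sources used here.

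Counts were added up within each sample and cell type and given as CPM. These sums were tested with edgeR 4.0.16 in R 4.3.3 (TMM, filterByExpr, quasi-likelihood test, Benjamini-Hochberg adjustment over all genes tested, threshold 0.05). The dispersion of genotype tests comes from heterozygous and knockout retinas, since wild type had 1 retina at either age. Thinning to 2000 UMIs left out 5 explant RGCs and 0 P0 RGCs. Scrublet (scanpy 1.11.5) marked 91 explant, 6 P0 and 2 P14 cells, which was taken as a failed call at P0 and P14, and no cell was removed. Alternatives were DESeq2 1.42.0, its size factors, no filter, removal of the highest 5% of doublet scores, thinned cells, explants at 0 nM only, log10 of dose plus 1, each sample left out and, added after the data were seen, RGCs with a *Pou4f* and no *Tfap2a* or *Tfap2b* UMI. The fits of P0 against explants, and the RGC fits of the agonist and P0 genotype comparisons, were tested on simulated data. Intervals at 95% cover counting error only.

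The genes and lists were chosen with earlier results of these data known. Named are the 8 genes, up to 4 called genes of each list with the largest fold change, label markers, and the 3 genes most like each of the 8. A listed gene is not reported here.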

Additional observations from a re-analysis of the deposited data

Results flagged for a closer look

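A sample stood far from the others of its group by Dixon's criterion in 4 of 40 gene and cell type groups. The criterion marks about 1 in 20 groups by chance for continuous values, a rate that does not carry over to sparse counts. *Sncg* stood at 827 CPM in RGCs of the second 50 nM explant, and the next explant at 392 CPM. *Nefl* stood at 3154 CPM in RGCs of the P0 retina labelled wild type, and the next retina at 2200 CPM. *Sncb* and *Nefh* each stood at 4.85 CPM, from 1 UMI, in RGCs of the second 500 nM explant, and at 0 CPM in the other 7 explants. A group with UMIs in 1 sample alone is always marked by this criterion.

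The difference between P0 and explants was not the same in RGCs and amacrine cells for 7 genes, by the edgeR interaction term. RGCs exceeded amacrine cells in it by 5.44 (log2) for *Sncb*, 3.54 for *Sncg*, 2.56 for *Rbpms*, 2.34 for *Nefl*, 1.86 for *Stmn2*, 1.47 for *Gap43* and 1.44 for *Nefm*. The *Sncb* value rests on 1 UMI in explant RGCs. Of the 7599 genes tested in this model, 32.6% were called in either direction and 19.1% as a larger P0 excess in RGCs.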

How the results depend on the processing

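Samples could not be paired between conditions, because the deposited cell annotation carries a sample barcode and no replicate number. The alternative restricted to P0 RGCs within the explant range of genes per cell gave no value, since 0 cells were left. Among the 8 genes, the calls between P0 and explant RGCs fell from 6, *Sncb* aside, to 4 among *Pou4f* cells, and explant RGCs then had 4.11 of the genes per cell. For the genotype and agonist comparisons, the share of all genes called in each alternative is not given. Counts of their calls in the alternatives therefore have no background and are not read as results. Calls of knockout against wild type at P0 became 3 without the filter and 0 with DESeq2, and against heterozygous 2 without the filter. Leaving out 1 sample gave 0 to 1 calls for the agonist, 2 to 4 and 0 to 2 for the P0 comparisons, and 0 to 1 for each P14 comparison, where the call was *Gap43* in Muller glia (2.17 without knockout replicate 1 against wild type, and -1.84 and -2.16 without heterozygous replicate 1 and knockout replicate 2 against heterozygous). Log2 values that changed sign were *Ina* (-0.027) and *Stmn4* (-0.26) in thinned cells, *Stmn4* (-0.38), *Rbpms2* (-0.056), *Elavl2* (-0.10), *Elavl4* (-0.14) and *Thy1* (-0.0096) among *Pou4f* cells, and *Sncg* in progenitors with the dose covariate (-0.28). The cause was not tested. Genes called between P0 and explant RGCs numbered 1994 of 3696, and 3275 of 14978 without the filter. They numbered 1009 of 1629 among *Pou4f* cells, 228 of 446 in thinned cells and 531 of 5552 with 0 nM explants alone. With 0 nM explants alone the median of all genes was 0.52. In the RGC minus amacrine comparison that median was 0.82 with 0 nM explants alone and -0.11 with DESeq2's size factors, against 0.08, and 778 genes were called with 0 nM explants and 739 in thinned cells, against 2481.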
